A study of Mus musculus with 2 samples.

Results

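Proton pump, carbonic anhydrase and bicarbonate transport genes of the newborn mouse kidney were described here. The set was chosen by symbol among the protein-coding genes of both deposited gene tables. It took every Atp6v0 and Atp6v1 gene (subunits of the vacuolar proton pump, the V-ATPase), the carbonic anhydrases other than Car9, and the Slc4, Slc26 and Slc9 transporters whose symbols end in a member number. Added by name were the H+/K+-ATPase genes Atp4a and Atp12a, the ammonia transporter genes Rhbg and Rhcg, and the transcription factor gene Foxi1. The rule found 73 of 21474 named protein-coding genes. No measured value entered the rule. One of them, Atp6v1fnb, matches by its name as a neighbour of Atp6v1f and encodes no pump subunit.

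Total RNA was sequenced from mouse kidney of the strain B6NCrl at birth (postnatal, age 0 days). There were 2 libraries in a single group, each from the 2 kidneys of 1 pup, and both pups had the same mother. The labels give no treatment and no genetic change, and sex was not collected. No groups can therefore be compared, no p-value is given, and the spread is that between littermates (n = 2).

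The kidney returns filtered bicarbonate to the blood and excretes acid and ammonia. In the proximal tubule, sodium-proton exchange, carbonic anhydrase and basolateral sodium bicarbonate cotransport reclaim bicarbonate. In the collecting duct, intercalated cells, whose identity depends on Foxi1, place the V-ATPase and either a basolateral or an apical chloride-bicarbonate exchanger in their membranes. The V-ATPase is a rotary pump: its cytosolic V1 sector hydrolyses ATP, and its membrane V0 sector carries the protons. Most cells use it to acidify lysosomes and endosomes, and some subunits have a second form that is restricted to acid-secreting cells.

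Promoter sequences are shown first for 4 pump genes, since the set mixes subunits made in every cell with forms kept to a few cell types. RefSeq promoter windows on GRCm38.p6 (mm10), from 250 bases before to 50 bases after a gene's start, were at hand for 50 of the 73 genes, as 61 windows. The first 3 stretches hold TCACGTGA, in capitals, the form of the E-box known as the binding string of TFEB, a regulator of lysosomal genes. In the last, capitals mark TGTTTAC, the reverse complement of the forkhead string GTAAACA, in the window of the intercalated cell form Atp6v1b1. All are written 5′ to 3′ on the gene's strand and lie at chr16:44139344-44139431 (minus strand), chr8:105566035-105566108 (minus strand), chr17:26676358-26676425 (plus strand) and chr6:83742879-83742965 (plus strand).
Atp6v1a: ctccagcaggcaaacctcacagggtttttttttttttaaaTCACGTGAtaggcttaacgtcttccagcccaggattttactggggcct
Atp6v0d1: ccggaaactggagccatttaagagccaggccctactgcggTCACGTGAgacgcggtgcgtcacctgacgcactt
Atp6v0e: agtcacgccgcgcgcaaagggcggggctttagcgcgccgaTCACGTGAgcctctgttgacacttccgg
Atp6v1b1: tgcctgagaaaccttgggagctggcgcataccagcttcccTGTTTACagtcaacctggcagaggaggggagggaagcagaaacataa

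TCACGTGA, which reads the same on both strands, began 132 bases before the start in Atp6v1a, 4 bases before it in Atp6v0d1 and 2 bases after it in Atp6v0e. It occurred in 3 of the 19 windows of V-ATPase subunit genes (15.8%), and in 0.974% of all 32851 windows of the same length. Its inner part CACGTG, which counts these windows again, was found in 4 of the 19 (21.1%, the fourth in Atp6v0b) against 7.15% of all windows. GTAAACA or its complement lay in 3 of the 61 windows (4.92%; Atp6v1b1, Car5a and Slc26a1) against 3.65% of all. The GC-box string GGGCGG lay in 63.2% of the V-ATPase windows and 35.7% of all. Of the strings known from other factors, TATAAA of core promoters lay in 16.4% of the 61 windows and 13.6% of all, the CCAAT box in 31.1% and 37.4%, and GTTAAT (HNF1) in 4.92% and 7.10%. The CREB string TGACGTCA and the HNF4 string CAAAGTCCA lay in 0 of the 61, against 1.79% and 0.475% of all. The set of windows changed these shares. Over the 61 windows TCACGTGA lay in 4.92%, CACGTG in 11.5% and GGGCGG in 49.2%. Over the 19 V-ATPase windows GTAAACA and TATAAA each lay in 5.26%, CCAAT in 21.1% and GTTAAT in 10.5%. Each string was searched on both strands, and a match is a description of letters only.

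Base composition differed among the pump genes. The median ratio of observed to expected CpG was 0.679 in the V-ATPase windows, 0.553 in the windows of the whole set and 0.384 in all windows. Atp6v0a4, Atp6v1b1 and Atp6v1g3, forms of subunits a, B and G known from intercalated cells, had ratios of 0.0579, 0.122 and 0.126. Atp6v0a1, a broadly made form of subunit a, stood at 0.462, and Atp6v0d1, Atp6v0b and Atp6v0e at 0.898, 0.913 and 0.874. The restricted form Atp6v1c2 did not share the low ratio, at 0.679. Among the carbonic anhydrases, Car15 had 0.222 and Car4 had 0.640, although both belonged to the highest of their family.

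**Figure D1:**
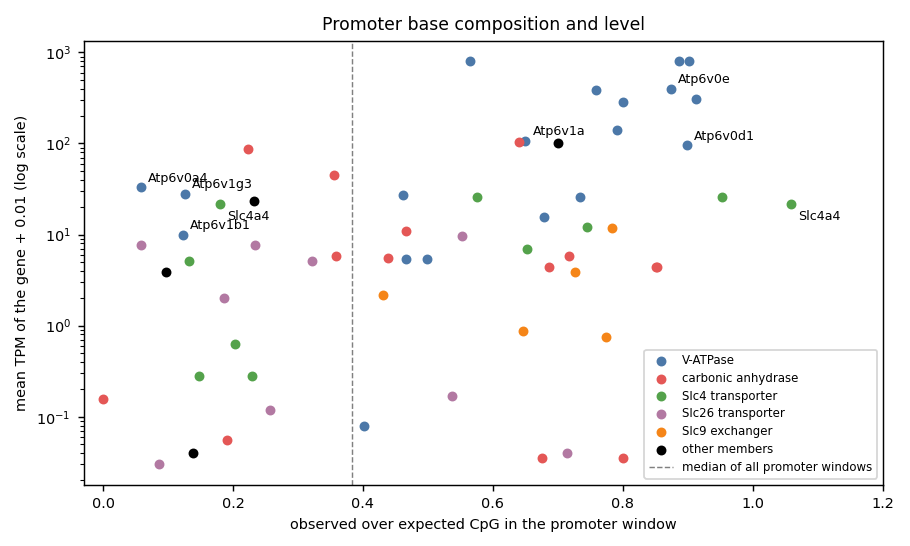
Ratio of observed to expected CpG in each RefSeq promoter window (x axis) against the mean TPM of its gene over the pups plus 0.01 (y axis, log scale), one point per window and colours by family, with the median of all windows as a dashed line. Atp6v0a4, Atp6v1b1 and Atp6v1g3 sit at 0.0579 to 0.126, left of the dashed line at 0.384, and the 3 genes with TCACGTGA lie between 0.650 and 0.898.

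The libraries held 41584961 expected counts (pup 1) and 48823952 (pup 2), so that 3 counts, the most a count of 0 allows, stand for 0.0721 and 0.0614 CPM (counts scaled to library size). Intervals and floors cover counting error only. The biological coefficient of variation between the pups was 7.34% over 17613 genes. Marker genes of the nephron cells were present: intercalated cell markers outside the set were detected for 9 of 9 (summed level 176 and 173 TPM in pups 1 and 2), principal cell markers for 6 of 6 (810 and 868 TPM), and proximal tubule markers for 6 of 6 (533 and 418 TPM). Levels below are in TPM, transcripts scaled to gene length and library size, which can be compared between genes, and each pair of values gives pup 1 and then pup 2. In whole kidney, fewer cells of a type and less RNA per cell cannot be told apart.

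Of the 73 genes, 58 were detected, meaning 1 TPM or more in both pups. That is 79.5%, against 61.5% of all named protein-coding genes. The median level was 8.80 and 8.50 TPM over all 73, and 4.81 and 4.62 TPM over all protein-coding genes. Among detected genes alone the set stood no higher than others, with medians of 16.6 and 15.3 TPM against 18.3 and 17.3. The families differed in level: the 22 V-ATPase subunit genes had medians of 86.7 and 76.1 TPM, the 15 carbonic anhydrases and related genes 5.54 and 5.49 TPM, and the Slc4, Slc26 and Slc9 families between 3.64 and 7.27 TPM.

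**Figure D2:**
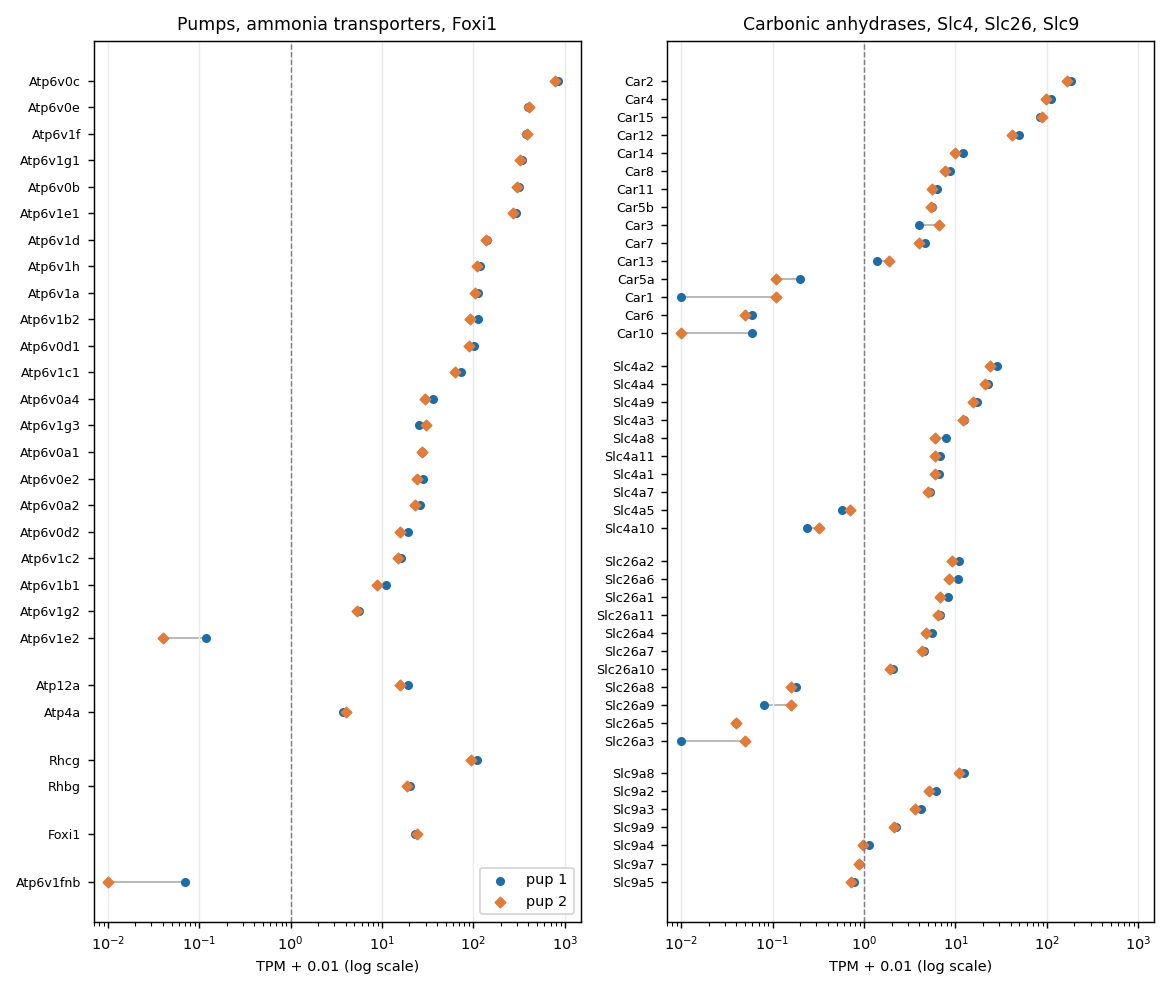
Level of 71 of the 73 genes as TPM plus 0.01 on a log scale (x axis), with circles for pup 1, diamonds for pup 2 and a dashed line at the detection limit of 1 TPM. Genes are ordered by mean level within each family, from Atp6v0c at 834 and 778 TPM down to genes listed at 0 in 1 pup.

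Subunits of the V0 sector, the part that spans the membrane, were all detected (9 of 9 genes). Atp6v0c, the proteolipid c that forms most of the rotating ring, was the highest gene of the whole set at 834 and 778 TPM (806 ± 39.3, SD, n = 2). Atp6v0e, a small membrane subunit, followed at 391 and 407 TPM, and Atp6v0b, the ring's c'' subunit, stood at 317 and 302 TPM. Atp6v0d1, the common form of the d subunit that couples ring and rotor, was at 100.9 and 89.5 TPM. The ring and the small e subunit thus stood above the other V0 subunits in both pups. The second e form, Atp6v0e2, was at 27.8 and 24.04 TPM, 14.04-fold and 16.9-fold below Atp6v0e. Atp6v0d2, the d form of intercalated cells and osteoclasts, was at 19.4 and 15.9 TPM, 5.18-fold and 5.62-fold below Atp6v0d1. Osteoclast and macrophage markers were all detected (4 of 4), at a summed 30.3 and 27.0 TPM, and their part in the Atp6v0d2 level was not tested.

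Subunit a, which holds the proton channels and decides where the pump is sent, was the one subunit with no dominant gene. Atp6v0a4, the form mutated in distal renal tubular acidosis, was at 36.6 and 29.7 TPM. Atp6v0a1 stood at 27.4 and 27.5 TPM, and Atp6v0a2, known from the Golgi, at 26.4 and 23.1 TPM. Neither differed from Atp6v0a4 by as much as 2-fold in either pup. Atp6v0a4 held 40.5% and 37.0% of the summed TPM of these 3 genes, and 29.6% on average once Tcirg1, the a3 form of lysosomes and osteoclasts (26.0 and 26.6 TPM), was added to the sum. The order within subunit a depended on transcripts not annotated as coding. Over coding transcripts alone Atp6v0a4 was lowest in both pups, with a mean of 27.6% (29.2% and 25.9%). Atp6v0a1 held 35.5% (32.7% and 38.4%) and Atp6v0a2 36.9% (38.1% and 35.7%), and their order differed between the pups.

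In the V1 sector, which hydrolyses ATP, 12 of 13 genes were detected. Atp6v1f, a rotor subunit, was highest at 380.0 and 387 TPM, followed by Atp6v1g1 (343 and 324 TPM) and Atp6v1e1 (296 and 274 TPM), whose proteins pair up in the outer stalks. The second rotor subunit, Atp6v1d, was at 141 and 138 TPM. Atp6v1h, which regulates the pump, was at 118 and 111 TPM, and its ranges over the pups overlapped that of Atp6v1a (111 and 103 TPM), the catalytic A subunit. Atp6v1b2, the common B form that completes the catalytic head with A, had 111 and 91.7 TPM, and Atp6v1c1, the common C form, 72.5 and 62.7 TPM. Summed over all genes of a subunit, A and B stood close together at means of 107 and 111 TPM, while E, F and G stood at 285, 384 and 367 TPM.

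The second forms of the V1 subunits were all lower than the common ones. Atp6v1b1, the B form that acid-secreting cells use and the other pump gene of distal renal tubular acidosis, was at 11.1 and 8.79 TPM. This was 9.94-fold and 10.3-fold below Atp6v1b2, and 9.07% and 8.74% of subunit B. Atp6v1g3, the kidney form of G, was at 25.6 and 30.4 TPM, or 6.84% and 8.45% of subunit G. Atp6v1g2, the form best known from neurons, had 5.58 and 5.28 TPM, 60.4-fold and 60.1-fold below Atp6v1g1. Atp6v1c2, a C form of kidney and lung, had 15.96 and 14.99 TPM, 18.05% and 19.3% of subunit C. Atp6v1e2, the testis form of E, had 0.11 and 0.03 TPM from 3 and 1 counts, at the floor of these libraries. Atp6v1fnb was listed at 0.06 and 0 TPM although it begins 0.924 kb beyond the end of Atp6v1f.

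The restricted forms and the second e form thus did not stand in one ratio to their common partners. Subunit a4 held the largest share of its subunit, C2 and d2 came next at means of 18.7% and 15.6%, and B1, G3 and e2 held 8.91%, 7.64% and 6.10%. The order below a4 depended on the measure: over coding transcripts C2 held 9.47%, under d2 at 15.7%. From expected counts, which are not per length, d2 held 22.9%, e2 13.9%, C2 13.6%, G3 12.5% and B1 6.38%. Each share differed between the pups by less than 4 percentage points.

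**Figure D3:**
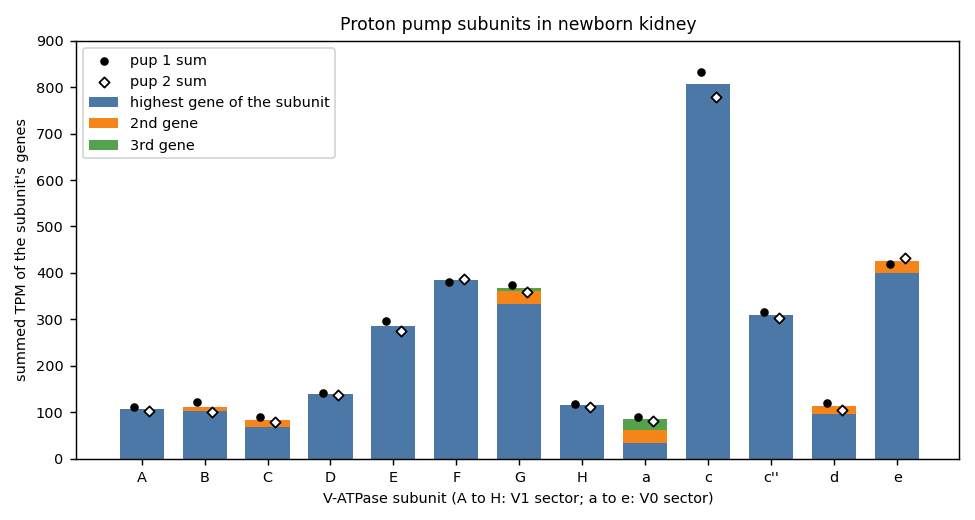
Summed TPM of the genes encoding each V-ATPase subunit (y axis), as stacked bars of the mean over the pups with the highest gene at the bottom, circles for the sum in pup 1 and diamonds for pup 2. Subunit c stands highest at a mean of 806 TPM, and subunit a is the only one divided among 3 genes of like level.

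Of 14 genes for accessory and assembly proteins of the pump, 13 were detected, at medians of 34.9 and 35.3 TPM. The highest was Tmem9, a lysosomal membrane protein that binds the pump, at 195 and 174 TPM, and the lowest Atp6ap1l at 0 and 0.17 TPM. Atp6ap1 (140 and 120 TPM) and Atp6ap2 (136 and 129 TPM) encode accessory subunits of the V0 sector. Both stood between the V1 genes Atp6v1h (118 and 111 TPM) and Atp6v1d (141 and 138 TPM) in each pup.

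Carbonic anhydrases speed the exchange between carbon dioxide and bicarbonate. Car2, the cytosolic enzyme of tubule cells and red cells, led the family at 185 and 165 TPM. Car4, anchored on the outer membrane of the proximal tubule, followed at 111 and 97.5 TPM, and the ratio of Car2 to Car4 was 1.66 and 1.69, under 2-fold in both pups. Car15, a further membrane-anchored enzyme of mouse kidney, was at 83.1 and 89.1 TPM. Of the 4 highest carbonic anhydrases all but Car2 were therefore membrane enzymes, the fourth in order being Car12, a transmembrane form, at 49.1 and 41.6 TPM. Car14, also transmembrane, stood lower at 12.2 and 9.86 TPM, 9.10-fold and 9.80-fold below Car4. Of the Car15 transcripts' 50-base windows 58.3% also occur in Gm20518 (3.15 and 3.53 TPM), so the division of reads between these genes rests on the authors' model.

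The remaining carbonic anhydrases were low. Car8 (8.80 and 7.72 TPM) and Car11 (6.25 and 5.49 TPM) encode related proteins without the enzyme's activity. Car5b, of mitochondria, was at 5.54 and 5.44 TPM, while the other mitochondrial gene, Car5a, had 0.19 and 0.10 TPM from 3 and 4 counts. Cytosolic Car7 was at 4.68 and 4.01 TPM and Car13 at 1.38 and 1.84 TPM. Car3, the cytosolic form best known from muscle and fat, was at 4.02 and 6.57 TPM. Car1, Car6 and Car10 had at most 4 counts in either pup and lay between 0 and 0.10 TPM. Car13, Car1, Car3 and Car2 are neighbours on chromosome 3, with gaps of 103, 55.1 and 13.7 kb, and there Car2 stood 125-fold and 85.0-fold above Car13.

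Among the Slc4 bicarbonate transporters 8 of 10 were detected. Slc4a2, the broadly made chloride-bicarbonate exchanger AE2, was highest at 28.2 and 23.8 TPM, and its range over the pups overlapped none of the other Slc4 genes. Slc4a4, the electrogenic sodium bicarbonate cotransporter NBCe1 of the proximal tubule, was at 22.6 and 20.8 TPM. Slc4a9, an exchanger of type B intercalated cells, had 17.2 and 15.5 TPM, and Slc4a3, the exchanger AE3 known from heart and brain, 12.3 and 12.1 TPM. The 4 led the family in the same order in both pups by gene TPM. Coding transcripts of Slc4a3 made up only 0.81 and 0.85 TPM, however, below those of Slc4a8, Slc4a11, Slc4a1 and Slc4a7. Slc4a8, a sodium-driven exchanger, was at 7.79 and 5.95 TPM, Slc4a11 at 6.75 and 6.01 TPM, and Slc4a7, the electroneutral cotransporter NBCn1, at 5.31 and 4.99 TPM. Slc4a5 and Slc4a10 were not detected (0.23 to 0.69 TPM).

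Slc4a1, the exchanger AE1 of red cells and of type A intercalated cells, was at 6.52 and 5.89 TPM. Slc4a4 stood 3.44-fold and 3.49-fold above it, and Slc4a2 4.27-fold and 3.99-fold. Of the erythroid markers 4 of 6 were detected, at a summed 2010 and 2027 TPM nearly all from the globin genes Hba-a1 (831 and 810.0 TPM) and Hbb-bs (1165 and 1204 TPM). Other genes of the red cell series were low, with Alas2 at 10.5 and 10.1 TPM and Epb42 at 1.71 TPM in both pups. The part of red cells in the Slc4a1 level was not tested.

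Slc26a4 encodes pendrin, the apical chloride-bicarbonate exchanger of type B intercalated cells, and stood at 5.48 and 4.74 TPM. Slc4a1, which serves the opposite membrane in type A cells, differed from it by 1.19-fold and 1.24-fold, less than the 2-fold limit. Slc26a7, an exchanger of type A cells, was at 4.49 and 4.32 TPM. These intercalated cell exchangers thus lay within a narrow range in both pups, and below Slc4a9. Slc26a3, the intestinal exchanger that lies 45.9 kb from Slc26a4, was listed at 0 and 0.04 TPM.

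Other Slc26 genes carry sulfate, oxalate and chloride. Slc26a2, a sulfate transporter needed by cartilage, had 10.9 and 9.13 TPM, and Slc26a6, the apical oxalate exchanger of the proximal tubule, 10.6 and 8.50 TPM. Slc26a1, the basolateral sulfate transporter of the same cells, was at 8.36 and 6.79 TPM, and Slc26a11 at 6.80 and 6.36 TPM. Slc26a10 was the lowest detected at 2.07 and 1.89 TPM, and Slc26a5, Slc26a8 and Slc26a9 lay between 0.03 and 0.17 TPM. In all, 7 of 11 Slc26 genes were detected.

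Sodium-proton exchangers (Slc9) were detected for 6 of 9 genes. The highest was Slc9a8 at 12.4 and 11.1 TPM. Slc9a3, the apical sodium-proton exchanger NHE3 of the mature proximal tubule, had 4.19 and 3.64 TPM. Slc9a8 stood 2.92-fold and 2.98-fold above Slc9a3. Over coding transcripts Slc9a8 had 7.42 and 6.69 TPM, and the pair did not pass 2-fold (mean log2 ratio 0.84). Slc9a2 was at 6.12 and 5.08 TPM and Slc9a9, of late endosomes, at 2.24 and 2.09 TPM. Slc9a4 missed the detection limit in pup 2 (1.13 and 0.96 TPM), and Slc9a5 and Slc9a7 lay between 0.71 and 0.87 TPM. The scaffold gene Slc9a3r1, which tethers NHE3 at the brush border, had the highest mean of 18 other genes for proton, ammonia and bicarbonate handling, at 142 and 130.3 TPM. Glud1, glutamate dehydrogenase, stood beside it at 137 and 132 TPM and above it in pup 2. Of those 18, 13 were detected, at medians of 11.7 and 10.1 TPM, and Slc9c1, a sperm exchanger, was lowest at 0 in both pups.

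Rhcg and Rhbg encode the ammonia transporters of the collecting duct. Rhcg was at 111 and 93.3 TPM and Rhbg at 20.2 and 18.8 TPM, a ratio of 5.47 and 4.95. Of the Rhbg transcripts' 50-base windows 60.4% also occur in Gm38392 (3.88 and 2.67 TPM), so its level too rests on how shared reads were divided. Atp12a, the colonic form of the H+/K+-ATPase, was at 19.3 and 15.9 TPM. Atp4a, the gastric form, was at 3.75 and 4.07 TPM, 5.04-fold and 3.83-fold lower. Its partner subunit gene Atp4b was listed at 0 and 0.07 TPM, and the parietal cell gene Gif at 0.02 and 0 TPM. The alpha subunit of the gastric pump was thus detected in both pups where neither of these parietal cell genes was.

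Foxi1, the transcription factor of intercalated cells, was at 23.1 and 24.1 TPM. It stood 2.07-fold and 2.73-fold above Atp6v1b1, one of its known target genes. With 1 TPM added in place of 0.1 the mean log2 ratio of Atp6v1b1 over Foxi1 was −1.18, but the pair no longer passed 2-fold in both pups. Its range over the pups overlapped none of the targets Atp6v1b1, Atp6v0a4 and Slc26a4, and of these 3 only Atp6v0a4 stood above it. Over coding transcripts alone Atp6v0a4 had 20.2 and 16.7 TPM, below Foxi1 in both pups.

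Of the 28 gene pairs compared, 20 had the gene listed first at least 2-fold higher in both pups, 1 (Atp6v1b1 and Foxi1) had the second higher, and 7 were not called. The pairs not called included Atp6v0a4 with Atp6v0a1 and with Atp6v0a2, Car2 with Car4, Slc26a4 with Slc4a1 and with Slc26a6, and Slc26a1 with Slc26a6. Ratios were taken after adding 0.1 TPM.

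The genes of the set were also compared between the pups. Of the 63 that reached 50 expected counts in 1 pup or both, 0 differed by 2-fold, against 0.571% of all 15063 genes tested. In pup 2, 23 were above and 40 below pup 1, and their median log2 ratio was −0.03, beside 0.01 over all genes tested. The median size of the log2 ratio was 0.09 in the set and 0.10 over all genes tested, so the set differed between the pups about as much as other genes did. These ratios compare 2 libraries and were taken on counts scaled to library size.

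Car3 was the farthest apart. It had 177 and 368 counts, a ratio of 1.78 for pup 2 over pup 1 (log2 0.83, counting interval 0.59 to 1.12). Skeletal muscle markers were detected for 1 of 3 and did not move in one direction, with Ckm at 0.66 and 0.79 TPM, Acta1 at 1.97 and 1.42 TPM and Myh3 at 0.05 and 0.01 TPM. Their part in the Car3 difference was not tested.

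Ratios of the intercalated cell genes of the set were small. On the log2 scale of pup 2 over pup 1, Atp6v1g3 stood at 0.34 and Foxi1 at 0.16. Atp6v1b1, Atp6v0d2 and Atp6v0a4 had ratios of −0.24, −0.20 and −0.19, and Atp12a also −0.19. The counting intervals of all 6 excluded 0, such as 0.24 to 0.44 for Atp6v1g3, but these cover counting error only. All 6 ratios lay within the spread of genes in general. Between the pups 95% of all genes tested differed by less than 0.44, and 95% of protein-coding ones by less than 0.40. These spreads include genes of fewer counts, and a spread over genes of like counts was not taken. With 1 library per pup, no direction can be read from the 6 ratios. Intercalated cell markers outside the set summed to 176 and 173 TPM, of which the highest alone gave 98.45 and 103.73 TPM. Each of the other markers of that list was lower in pup 2. So was TPM in general, with medians of 18.3 and 17.3 over all detected protein-coding genes. Small falls in TPM therefore need not be falls in scaled counts. Proximal tubule markers summed to less in pup 2 (533 and 418 TPM). These sums are in TPM, whereas the ratios are of scaled counts. The part of these cell types in the ratios was not tested.

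**Figure D4:**
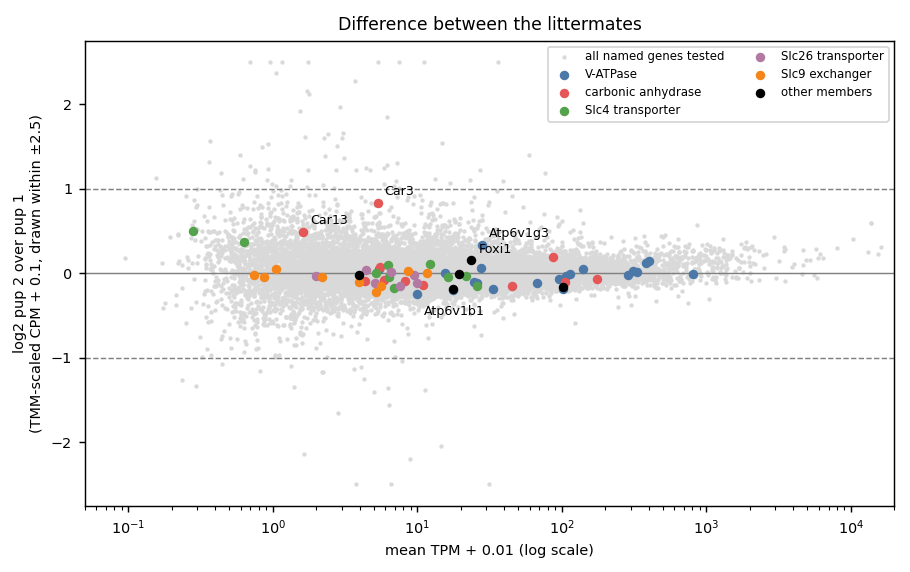
Log2 ratio of pup 2 over pup 1 in scaled CPM plus 0.1 (y axis) against mean TPM plus 0.01 on a log scale (x axis), for all genes tested in grey and the 63 genes of the set in colour, with dashed lines at 2-fold. The coloured points lie between −0.24 and 0.83, Car3 being the highest.

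At the level of transcripts, 18 of the 58 detected genes had a single one in the tables and 40 had more. For 38 of these 40 the leading transcript was annotated as coding, the exceptions being Slc4a3 and Atp6v1c2. For 27 of the 40, coding transcripts held at least 90% of the gene's TPM in both pups. The same shares were not taken over all genes, so whether the set differs from other genes in this was not tested.

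Slc4a3 was detected as a gene but hardly as a coding RNA. Its leading transcript, a retained intron form of 706 nt, held 42.6% and 39.9% of TPM. Coding transcripts held 6.56% and 7.01%, which is 0.81 and 0.85 TPM, and this was the only detected gene of the set under 1 TPM of coding RNA. The next, a transcript of 3926 nt marked for nonsense-mediated decay, held 24.8% and 29.0%.

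For Atp6v1c2 the leading transcript, of 1397 nt, was marked for nonsense-mediated decay and held 49.8% and 58.8%. Coding transcripts summed to 8 and 6.19 TPM. The share of subunit C held by Atp6v1c2 was 9.47% over coding transcripts, against 18.7% over all. In Atp6v0a4 a retained intron form of 666 nt held 42.1% and 39.9%, beside 55.2% and 55.6% for the coding transcript of 3285 nt. Slc9a8 had 59.7% and 60.5% in coding transcripts. These are estimates from short reads, and short transcripts gain TPM from few reads.

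**Figure D5:**
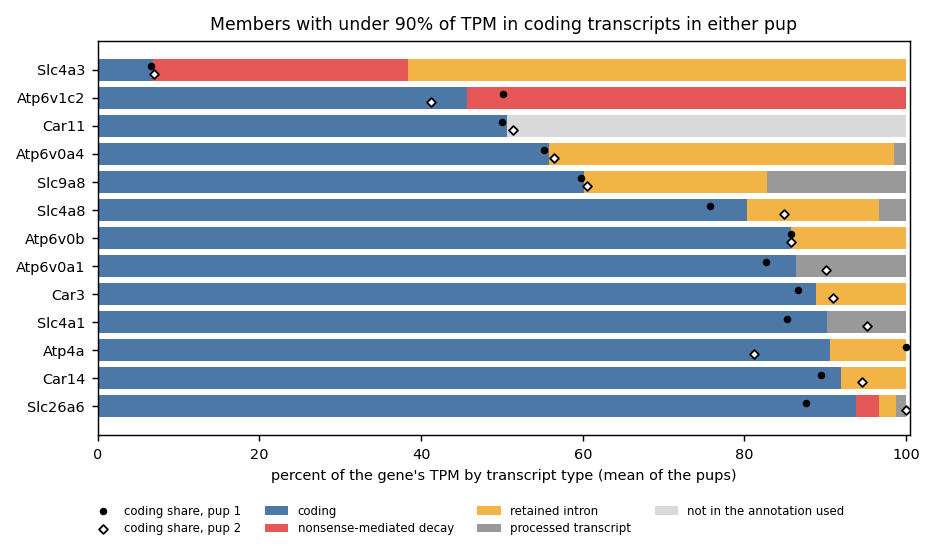
Percent of TPM by transcript type (x axis, mean over the pups) for genes with at least 2 transcripts and under 90% of TPM in coding ones in either pup, with circles for the coding share in pup 1 and diamonds for pup 2. Slc4a3 stands apart at 6.56% and 7.01% coding.

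Slc26a6 showed how 1 short transcript can carry a gene. Its coding transcript of 418 nt begins 50.3 kb beyond the end shared by most of its other transcripts and held 50.9% and 44.2% of TPM from 50.9 and 43.8 counts. Without it Slc26a6 stood at 5.18 and 4.74 TPM, below Slc26a1 in both pups and no longer above Slc26a4.

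Slc4a4 is known to be made from an upstream start and from an inner start that gives the kidney form of the protein. Stretches of both RefSeq windows are shown with each CG in capitals, since the windows differ sharply in composition. The stretches lie on the plus strand at chr5:88887180-88887279 and chr5:89027886-89027985.
Slc4a4 upstream: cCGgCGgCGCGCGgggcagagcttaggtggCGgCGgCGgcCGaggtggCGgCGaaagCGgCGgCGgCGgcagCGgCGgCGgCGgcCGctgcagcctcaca
Slc4a4 inner: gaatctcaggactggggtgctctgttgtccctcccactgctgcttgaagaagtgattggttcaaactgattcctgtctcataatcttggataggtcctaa

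The upstream stretch holds 20 CG and the inner one 0, and the CpG ratios of their windows were 1.06 and 0.181. Transcripts from the upstream start held 63.3% and 65.1% of the gene's TPM (14.3 and 13.5 TPM), and those from the inner start, 141 kb further on, 36.7% and 34.9% (8.32 and 7.25 TPM). Of the inner transcripts, the longest, of 3335 nt, held 15.85% and 9.01% of the gene's TPM. A short one, of 780 nt, held 16.35% and 20.04% from 74.8 and 103.5 counts. In expected counts, which are not per length, the upstream start had 3181 and 3725 and the inner start 493 and 432. By this estimate transcripts of both starts were present in both pups. The inner transcripts of the tables end at least 4792 bases before the furthest upstream one, and reads of that end can count only for the upstream start. How far this moves the shares was not tested.

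In Slc4a1, Atp6v1h, Slc4a2, Car12 and Atp6v0a1, 1 coding form led in both pups. It held 89.7% and 91.1% in Atp6v1h. In Slc4a1 it held 85.3% and 95.2% and was the only coding transcript listed, so coding forms could not be compared there. In Slc4a2 it held 61.8% and 66.5%, with a second start variant at 24.6% and 19.7%. The 2 coding forms of Car12, of 3716 and 3639 nt, held 59.96% and 68.8% against 39.8% and 30.4%. The leading transcript of Atp6v0a1 had 60.9% and 49.1%, a difference between the pups larger than that of the gene's own level. Slc4a7 and Slc9a3 each had 1 transcript in the tables. In Car11 a transcript not in the annotation used for names held 50.01% and 48.6%, and the coding one 49.99% and 51.4%, so that their order differed between the pups.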

How the data were processed

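Both libraries form 1 group per the labels. The authors deposited, per library, a gene and a transcript table. Per the file headers these give an expected count (an estimated, not normalized, number of reads), TPM, FPKM and posterior means with their SD, and for transcripts the percent of the gene's TPM; the columns are those of RSEM. The text deposited with the libraries names mm10 and GENCODE M4. Which aligner, software version and strand setting were used is not given in the sources used here. Labels list 10 ng of RNA over 200 nt, spike-ins, mirVana extraction and a SMARTer kit manual of unstated role.

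Names, transcript types and coordinates came from GENCODE M21 on the same assembly, matched by identifier; 42462 of 69691 features were named. For 60 of the 73 genes the posterior SD of the count was 0 in both pups, meaning no read was divided among genes. The genes and lists were chosen with earlier results of these data known. A few genes of the set and of the marker lists are not reported here by name. Named were the other genes of the set, the pairs among them, a fixed set for isoforms with every gene not led by a coding transcript, and the highest and lowest of each pathway list; further genes, such as Atp6ap1, Slc9a8 and Car11, were added after their values were seen. The 9 promoter strings and the stretches shown were also chosen with the data in view. Proteins, planned for display, are not shown.

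Detection was 1 TPM in both pups. Pair ratios used TPM + 0.1, called at 2-fold in both pups; none is quoted against a gene with under 5 counts. Pup ratios used expected counts scaled by TMM factors (edgeR 4.0.16, R 4.3.3), 0.1 CPM added, with exact binomial 95% intervals. Counts were rounded for the factors and the intervals, not for the ratios. The coefficient of variation came from edgeR. The pup ratios were checked on simulated counts with known fold changes. The CpG ratio is the count of CG times the length over the product of the C and G counts. Scripts ran in Python 3.11.15 with SciPy 1.17.1, NumPy 2.4.6, Matplotlib 3.10.9 and pandas 2.3.3. Alternatives were other thresholds, DESeq2 1.42.0 size factors, posterior mean TPM, FPKM, expected counts in place of TPM, other added constants and each pup alone; coding transcripts alone and Slc26a6 without 1 transcript were added after seeing the data.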

Additional observations from a re-analysis of the deposited data

How the results depend on the processing

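No paired analysis was possible because the labels give a single group, so no 2 groups share replicate numbers. The number of genes detected ran from 56 to 62 over all thresholds and scalings, from 58 to 59 with 1 pup alone, and was 57 over coding transcripts. Pairs at least 2-fold apart numbered 19 to 23. No gene of the set passed 2-fold between the pups under DESeq2 size factors, other count limits, 1 CPM added or TPM ratios, and 1 (Car3) passed at 1.5-fold. From expected counts, which are not per length, the shares of their subunits were 6.38% for Atp6v1b1, 13.6% for Atp6v1c2, 12.5% for Atp6v1g3, 31.1% for Atp6v0a4, 22.9% for Atp6v0d2 and 13.9% for Atp6v0e2. Over coding transcripts, an alternative added after seeing the data, they were 9.32% for Atp6v1b1, 9.47% for Atp6v1c2 and 27.6% for Atp6v0a4, and the log2 ratios of Atp6v0a1 and Atp6v0a2 over Atp6v0a4 turned to 0.36 and 0.42. Without the 418-nt transcript of Slc26a6, also added, the log2 ratio of Slc26a6 over Slc26a4 was −0.040 and that of Slc26a1 over Slc26a6 was 0.59. With each pup alone the 7 pairs not called stayed under 2-fold. Called pairs pass in both pups by definition, and shares were judged against the SD of the same 2 values, so neither could change. With 2 littermates, genes at a few counts, such as Atp6v1e2 and Car5a, cannot be ranked, and differences under 2-fold were not tested.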
